A study of Zea mays with 12 samples.

Results

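Maize stores much of its seed nitrogen in zeins, the prolamin proteins of the endosperm. Zeins are made on the rough endoplasmic reticulum and packed into protein bodies. Gamma and beta zeins are rich in sulfur amino acids and form the disulfide-linked outer layer of the body, while delta zeins, which are rich in methionine, lie inside with the alpha zeins. The transcription factors prolamin-box binding factor and Opaque2 are known activators of zein genes in filling endosperm. The 6 gamma, beta and delta zein genes described here were chosen by identifier out of the 46430 in the count tables: the 27-kDa gamma zein (Zm00001d020592), the 50-kDa gamma zein (Zm00001d020591), the 16-kDa gamma zein (Zm00001d005793), the 15-kDa beta zein (Zm00001d035760), the 18-kDa delta zein (Zm00001d037436) and the 10-kDa delta zein (Zm00001d045937). In RefSeq's gene table for Zm-B73-REFERENCE-NAM-5.0, the genes of these classes and sizes carry the symbols gz27, gz50, gz16, bz15, dzs18 and dzs10, and gz27 and gz50 are direct neighbours with 0 genes between them.

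RNA-seq was done on developing maize seeds at 14 and 7 days after pollination (DAP), from zmmsh7-2 plants and from wild-type plants, in a study of MSH7, a MutS homolog of the DNA mismatch repair family, in pollen fertility and grain yield. The zmmsh7-2 samples are labelled as an MSH7 knockout and as crispr with the genotype aa, and the wild-type samples are labelled WT with the genotype AA. There were 3 libraries in each of 4 groups, called here msh7 at 14 DAP, WT at 14 DAP, msh7 at 7 DAP and WT at 7 DAP. The sources used here do not give the maize line, the number of independent edited lines, or the seeds, ears or plants behind a library. The p-values therefore speak of variation among these libraries, and that variation may be technical.

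Library totals lay between 16854595 and 20575609 counts in msh7 at 14 DAP, between 20066289 and 21932590 in WT at 14 DAP, between 17502108 and 20441974 in msh7 at 7 DAP and between 19741682 and 20865544 in WT at 7 DAP. Levels are given as CPM, the reads of a gene per 1000000 reads of its library, scaled with trimmed-mean (TMM) factors over all 12 libraries. Genes are called changed at a Benjamini-Hochberg adjusted p below 0.05 in edgeR's quasi-likelihood test. The common biological coefficient of variation was 3.28% at 14 DAP and 2.92% at 7 DAP, so small differences in abundant transcripts passed the test. The sources used here pair no nuclear identifier of the count tables with a name, so MSH7, the alpha zeins, the zein regulators and other endosperm markers were not analysed here. The 20 matched photosystem genes of the plastid, markers of green tissue, summed to between 0 and 8 counts per library. How well these libraries capture plastid transcripts was not tested, so the counts are not read as a measure of green tissue. The seeds were sequenced whole, so fewer zein-making cells and less zein RNA per cell cannot be told apart. Gene lengths of the build used for counting were not used here, so levels are compared between groups and not between genes.

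At 14 DAP all 6 zein transcripts were lower in msh7 seeds than in WT seeds, by 1.38-fold to 1.74-fold, and the libraries of the genotypes did not overlap for any of them. The 27-kDa gamma and 15-kDa beta transcripts fell least, and the 50-kDa gamma, 16-kDa gamma and 10-kDa delta transcripts fell most. Lower calls covered 32.1% of all 23811 genes tested at this stage, and 33.3% were lower with no overlap between libraries. The members' median log2 fold change was −0.71, against 0.01 over all genes tested. With library totals as the only scaling, the split of called genes moved from 7557 higher and 7642 lower to 9532 higher and 6389 lower, and all 6 zein genes were still lower.

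The 27-kDa gamma zein, a cysteine-rich protein of the protein-body surface, was at 21545, 21482 and 21257 CPM in the msh7 libraries, against 30360, 30255 and 28738 CPM in the WT libraries. It had the most reads of any identifier in each of the 6 libraries at 14 DAP. Its mean was 21428 ± 151 CPM in msh7 and 29785 ± 908 CPM in WT (SD, n = 3 each), with a log2 fold change of −0.47 (SE 0.02, edgeR adjusted p = 5.76e-41). The 50-kDa gamma zein, a minor gamma zein encoded next to the 27-kDa gene, was at 1032, 1042 and 1050 CPM in msh7, against 1764, 1803 and 1867 CPM in WT. Its log2 fold change of −0.80 (SE 0.02, edgeR adjusted p = 6.95e-53) was the largest of the 6, so these neighbours fell by different amounts. The 16-kDa gamma zein, a relative of the 27-kDa protein, was at 5934, 5979 and 5827 CPM in msh7, against 10047, 10197 and 9690 CPM in WT. Its log2 fold change was −0.75 (SE 0.02, edgeR adjusted p = 2.06e-55). Every msh7 library lay below every WT library for each of these gamma zein genes, as for 33.3% of all genes tested at this stage.

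The 15-kDa beta zein, a methionine-rich and cysteine-rich protein of the same outer layer, was at 8748, 9223 and 8614 CPM in msh7 seeds, against 12746, 12413 and 11685 CPM in WT seeds. Its log2 fold change was −0.47 (SE 0.03, edgeR adjusted p = 1.59e-13), close to that of the 27-kDa gene. The spread among its WT libraries, with a coefficient of variation of 4.42%, was the widest of the 6 genes at this stage in either genotype. The 18-kDa delta zein, a methionine-rich protein, was at 1808, 1835 and 1750 CPM in msh7, against 2887, 2817 and 2913 CPM in WT, with a log2 fold change of −0.67 (SE 0.02, edgeR adjusted p = 2.67e-48). The 10-kDa delta zein, which is also rich in methionine, was at 4651, 4397 and 4654 CPM in msh7, against 7496, 7484 and 8035 CPM in WT. Its log2 fold change was −0.75 (SE 0.02, edgeR adjusted p = 4.30e-34). For all 3 genes the highest msh7 library was below the lowest WT library, a pattern shared by 33.3% of all genes tested at 14 DAP.

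**Figure D1:**
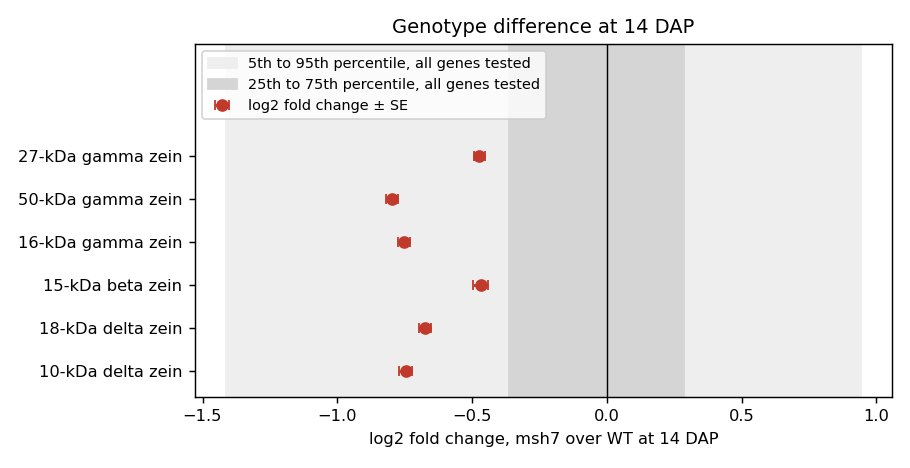
Log2 fold changes of the 6 zein genes, msh7 over WT at 14 DAP (points, with bars of 1 SE), over bands that hold the middle of all 23811 genes tested. All 6 points lie below 0 and below the 25th percentile of all genes, −0.36, and above the 5th percentile, −1.41.

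The size of the fall was not extreme among all genes, since 4952 of the 23811 genes tested had a log2 fold change at or below that of the 15-kDa gene. Among abundant transcripts it was less common. Of 74 other genes with a mean of at least 1000 CPM at 14 DAP, 42 were lower in msh7, 21 were higher and 11 were not called, and their median log2 fold change was −0.12. Among them, 6 were as low in msh7 as the 15-kDa gene or lower. These counts describe the libraries and are no test of the zein genes as a group.

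Together the 6 genes took 4.06%, 4.08% and 4.01% of all counts in the msh7 libraries at 14 DAP, against 5.70%, 5.66% and 5.51% in the WT libraries. The mean share was 4.05% ± 0.04 in msh7 and 5.62% ± 0.10 in WT (SD, n = 3 each), and the libraries did not overlap. In scaled units the sum was 43609 ± 413 CPM in msh7 and 64399 ± 1285 CPM in WT. Of this difference the 27-kDa gene made up 40.2%, the 16-kDa gene 19.6%, the 15-kDa gene 16.4%, the 10-kDa gene 14.9%, the 18-kDa gene 5.17% and the 50-kDa gene 3.70%. The 27-kDa gene thus carried the greatest part of the missing reads although its own fold change was among the smallest.

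**Figure D2:**
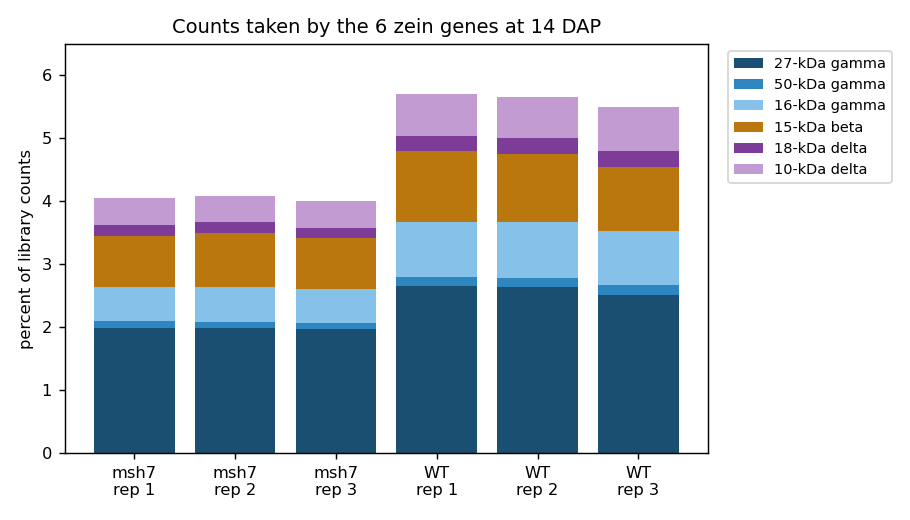
Percent of library counts taken by each of the 6 zein genes in the 3 msh7 and 3 WT libraries at 14 DAP, as stacked bars. The msh7 bars reach 4.01% to 4.08% and the WT bars 5.51% to 5.70%, and the 27-kDa segment is the largest in every bar.

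Because the 6 genes did not fall equally, the make-up of their reads differed between the genotypes. The 27-kDa gene held 49.1% ± 0.23 of the reads of the 6 genes in msh7 and 46.2% ± 0.50 in WT (SD, n = 3 each), and the libraries did not overlap. The 15-kDa beta gene held 20.3% ± 0.57 in msh7 and 19.1% ± 0.48 in WT. In contrast, the 16-kDa gene held 13.6% ± 0.05 in msh7 and 15.5% ± 0.17 in WT. The delta genes together held 14.6% ± 0.36 in msh7 and 16.4% ± 0.88 in WT. As a class the gamma genes kept a similar part, 65.1% ± 0.21 in msh7 and 64.6% ± 0.50 in WT, since the larger part of the 27-kDa gene offset the smaller parts of the 16-kDa and 50-kDa genes.

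A ratio of counts within a library does not depend on how libraries are scaled. Relative to the 27-kDa gene, the 50-kDa gene had 0.0486 ± 0.0007 reads per read in msh7 and 0.0609 ± 0.0036 in WT at 14 DAP (SD, n = 3 each). The 16-kDa gene had a ratio of 0.276 ± 0.0022 in msh7 and 0.335 ± 0.0036 in WT. For the 18-kDa gene the ratio was 0.0839 ± 0.0015 in msh7 and 0.0965 ± 0.0043 in WT, and for the 10-kDa gene it was 0.213 ± 0.0075 in msh7 and 0.258 ± 0.019 in WT. Each of these 4 ratios was lower in every msh7 library than in every WT library, as was the ratio of 13.1% of all other genes tested. The ratio of the 15-kDa gene overlapped between the genotypes, at 0.414 ± 0.014 in msh7 and 0.412 ± 0.0068 in WT. No p is given for these ratios, since 3 against 3 libraries cannot go below 0.1 in a two-sided exact permutation test.

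**Figure D3:**
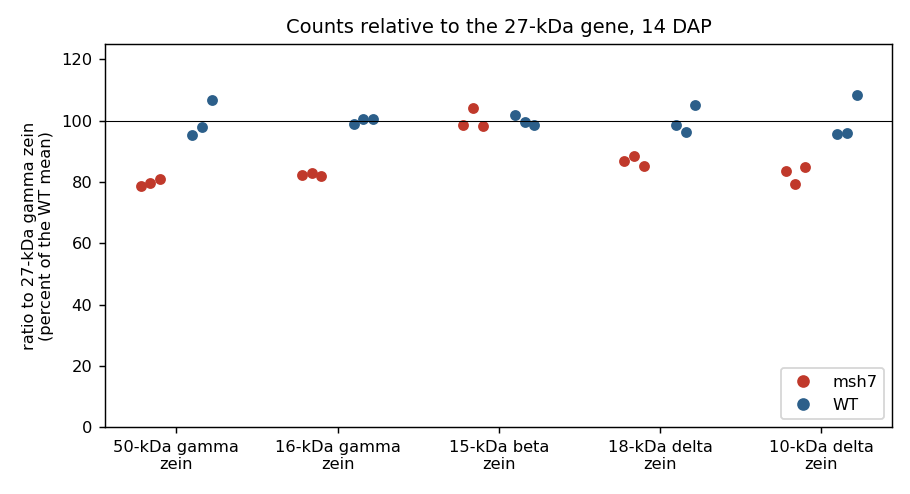
Read counts of 5 zein genes divided by those of the 27-kDa gene in the same library at 14 DAP, as a percent of the WT mean, with 1 point per library. The msh7 points lie below all WT points for the 50-kDa, 16-kDa, 18-kDa and 10-kDa genes and overlap them for the 15-kDa gene.

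From 7 to 14 DAP, the period in which the endosperm begins to fill, all 6 transcripts rose by more than 1000-fold in each genotype. Higher calls at 14 DAP covered 39.3% of 25344 genes tested in msh7 and 40.8% in WT. The 18-kDa and 50-kDa genes passed the filter on low counts here through their 14 DAP libraries alone. The fitted log2 fold changes of the other 4 genes lay between 10.27 and 13.30 in msh7 and between 11.03 and 13.55 in WT. The medians over all genes tested were −0.01 and 0.01. By fitted size of the rise these 4 zein genes ranked between 21 and 41 from the top of the 25344 genes in msh7 and between 11 and 38 in WT. With library totals as the only scaling the median of all genes lay at −0.30 in both genotypes. The split of called genes then became 7202 higher and 13182 lower in msh7, in place of 9948 and 10025, and 7480 higher and 13242 lower in WT, in place of 10332 and 10077. All 6 zein genes were still higher at 14 DAP. Each stage was deposited as a table of its own, and stage and any batch between these tables cannot be told apart.

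**Figure D4:**
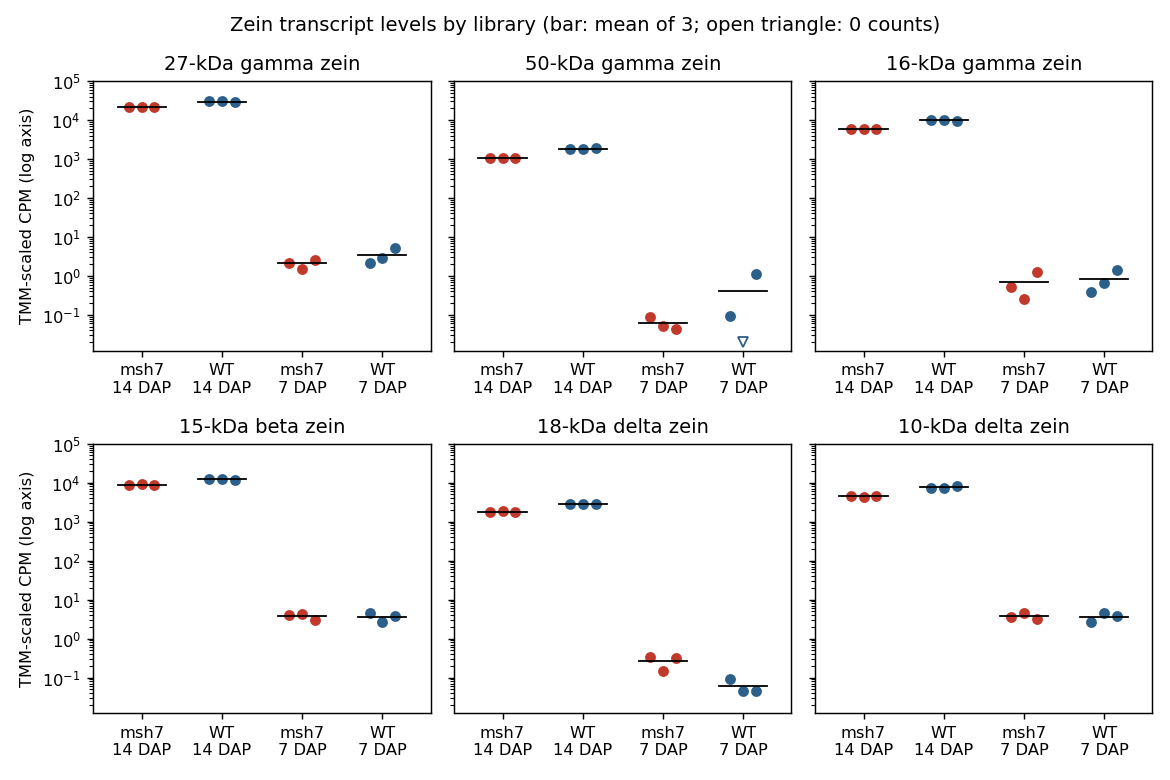
TMM-scaled CPM of each zein gene on a log axis, with 1 point per library, a bar at the mean of 3 libraries and an open triangle for a library with 0 counts. Every 14 DAP library lies at least 1000-fold above the mean of the 7 DAP libraries of its genotype, and at 14 DAP each msh7 point lies below each WT point.

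Expressed as a ratio of summed counts, the 27-kDa transcript was 10121-fold higher at 14 than at 7 DAP in msh7 (95% counting interval 8571 to 12039) and 8631-fold higher in WT (7585 to 9865). For the 16-kDa transcript the ratio was 8442 in msh7 (6329 to 11531) and 12087 in WT (9286 to 16045). Without replicate 3 of msh7 at 7 DAP the fitted log2 change of the 16-kDa gene in msh7 was 13.85 in place of 13.03, which is above the 13.55 of WT. Without replicate 3 of WT at 7 DAP its change in WT was 14.21. The 15-kDa beta transcript was 2340-fold higher in msh7 (2067 to 2660) and 3398-fold higher in WT (2995 to 3871). The 10-kDa delta transcript had the smallest rise in both genotypes, 1237-fold in msh7 (1091 to 1410) and 2094-fold in WT (1847 to 2383). These 4 genes had between 46 and 249 reads in each group of 7 DAP libraries. The remaining ratios rest on very few early reads. For the 18-kDa delta transcript the ratio was 6557 in msh7, from 18 early reads (4149 to 11065), and 47852 in WT, from 4 early reads (18689 to 175628). For the 50-kDa transcript it was 17100 in msh7, from 4 early reads (6678 to 62763), and 4466 in WT, from 27 early reads of which 25 were in 1 library (3070 to 6778). Without that library, WT replicate 3 at 7 DAP, the fitted log2 change of the 50-kDa gene in WT was 15.10 in place of 12.10, and without WT replicate 2 at 7 DAP it was 11.51. All counting intervals cover counting error only.

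Because the rises differed, the make-up of the 6 genes' reads was not the same at the 2 stages. The 10-kDa delta gene held 10.5% ± 0.42 of these reads in msh7 at 14 DAP, against 34.9% ± 6.41 in msh7 at 7 DAP (SD, n = 3 each). In WT it held 11.9% ± 0.73 at 14 DAP and 31.2% ± 9.70 at 7 DAP. The 15-kDa beta gene likewise held 20.3% ± 0.57 at 14 DAP and 35.7% ± 5.49 at 7 DAP in msh7, and 19.1% ± 0.48 at 14 DAP and 31.5% ± 11.7 at 7 DAP in WT. The gamma genes moved the other way, with 65.1% ± 0.21 at 14 DAP and 26.8% ± 10.5 at 7 DAP in msh7, and 64.6% ± 0.50 at 14 DAP and 36.7% ± 12.2 at 7 DAP in WT. As a part of the later level, the early level was lowest for the 18-kDa gene in WT, at 0.00211% from only 4 early reads. It was highest for the 10-kDa gene in msh7, at 0.0815% from 242 early reads. Early reads of all 6 genes together came to between 216 and 248 per library in msh7 and between 211 and 349 in WT.

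At 7 DAP the zein transcripts were scarce, and few differences between the genotypes were called. Of the 6 genes 4 passed the filter on low counts, of which 1 was lower in msh7 and 3 were not called, where 35.6% of 24096 genes tested were called lower and 71.1% were called in either direction. The median log2 fold change of these 4 was −0.11, against 0.01 over all genes tested. The 27-kDa transcript had 51, 30 and 58 reads in msh7 and 47, 64 and 119 reads in WT, and the genotypes overlapped. Its mean was 2.09 ± 0.54 CPM in msh7 and 3.43 ± 1.64 CPM in WT (SD, n = 3 each), with a log2 fold change of −0.70 (SE 0.27, edgeR adjusted p = 0.0231). This call was lost without WT replicate 3 (log2 fold change −0.25), without msh7 replicate 1 (−0.74) or replicate 2 (−0.53), with DESeq2 (−0.71) and in the fit of all 12 libraries (−0.70), and its adjusted p ranged from 2.39e-05 to 0.344 over the 14 alternatives run.

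The 15-kDa beta and 10-kDa delta transcripts had the closest levels in the genotypes at 7 DAP. The 15-kDa gene had 94, 86 and 69 reads in msh7 and 95, 59 and 87 in WT, a ratio of summed counts of 1.05 (95% counting interval 0.875 to 1.26). The 10-kDa gene had 81, 91 and 70 reads in msh7 and 57, 102 and 85 in WT, a ratio of 1.01 (0.839 to 1.21). The libraries of the genotypes overlapped for both genes. Their log2 fold changes were 0.07 (SE 0.17, edgeR adjusted p = 0.719) and 0.02 (SE 0.17, edgeR adjusted p = 0.921). The 16-kDa gamma transcript had 12, 5 and 29 reads in msh7 and 8, 15 and 32 in WT, with a log2 fold change of −0.24 (SE 0.45, edgeR adjusted p = 0.652). Replicate 3 was the highest library in each genotype for this gene. Its log2 fold change was 0.42 without WT replicate 3, 0.13 without msh7 replicate 2, and −1.05 without msh7 replicate 3 (edgeR adjusted p = 0.0437).

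The remaining genes were under the filter at 7 DAP. The 18-kDa delta transcript had 8, 3 and 7 reads in msh7 and 2, 1 and 1 in WT, so that every msh7 library was above every WT library, as for 35.9% of the genes tested at this stage. The ratio of summed counts was 4.57 (18 against 4 reads, 95% counting interval 1.50 to 18.5). With no filter edgeR called it higher (log2 fold change 2.08, adjusted p = 0.0387, SE 0.89). The fit of all 12 libraries gave the same fold change with a smaller SE of 0.50. The gene passed that fit's filter only through its 14 DAP libraries, so the p of that fit is not given. The 50-kDa gamma transcript had 2, 1 and 1 reads in msh7 and 2, 0 and 25 in WT. The library with 0 reads allows up to 0.132 CPM, by a floor of 3 counts. The ratio of summed counts, msh7 over WT, was 0.150 (4 against 27 reads, 0.0382 to 0.431). WT replicate 3 held 25 of the 27 WT reads, and without it the log2 ratio was 0.43 in place of −2.73. With no filter edgeR called this gene lower (log2 fold change −2.62, adjusted p = 0.00237, SE 0.80). The fit of all 12 libraries gave the same fold change with a larger SE of 1.46. This gene too passed that fit's filter only through its 14 DAP libraries, so the p of that fit is not given.

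**Figure D5:**
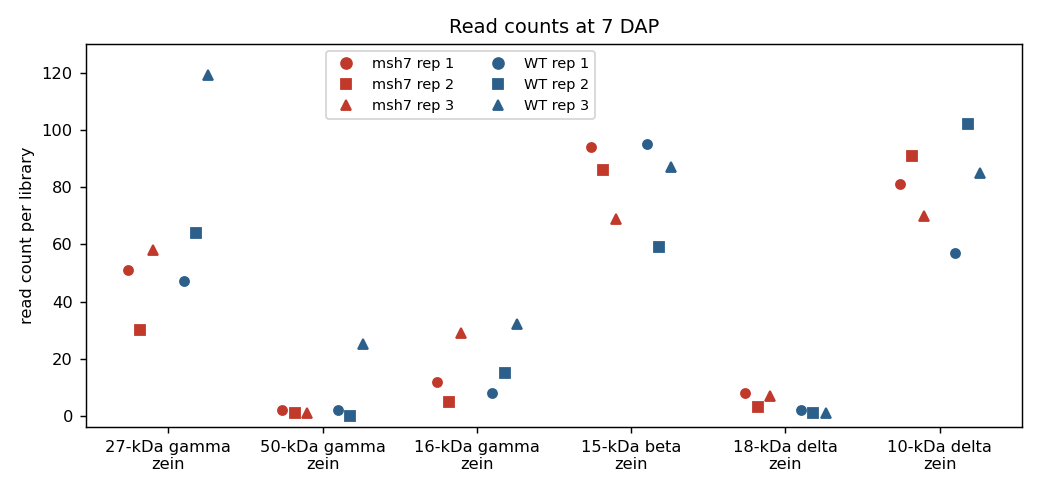
Read counts of the 6 zein genes in the 7 DAP libraries, msh7 left of WT within each gene, with a symbol for each replicate. WT replicate 3 is the highest library for the 27-kDa, 50-kDa and 16-kDa gamma genes, at 119, 25 and 32 reads, and the genotypes overlap for all but the 18-kDa delta gene.

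WT replicate 3 at 7 DAP was the highest of the 6 early libraries for all 3 gamma genes and for none of the others. The gamma genes held 50.4% of the 6 genes' reads in it, against at most 32.8% in the other WT libraries and at most 37.6% in the msh7 libraries of that stage. Its total of 20639548 counts was within the range of the other libraries.

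Whether the effect of genotype differed between the stages was tested in the fit of all 12 libraries. In it 24% of 25344 genes were called with a lower effect at 14 DAP and 46.8% were called in either direction. Of the 4 zein genes that also passed the filter at 7 DAP, 1 was called. This was the 10-kDa delta gene, whose effect was lower at the later stage and differed by −0.76 (SE 0.25, edgeR adjusted p = 0.0330), with the genotypes close at 7 DAP and apart at 14 DAP. This call was lost without WT replicate 1 (−0.58), WT replicate 3 (−0.78), msh7 replicate 1 (−0.80) or msh7 replicate 2 (−0.60) of 7 DAP. The difference fitted for the 18-kDa delta gene was −2.76 with an SE of 0.50, past the threshold. That SE is smaller than the 0.89 of its 7 DAP effect alone, the early values rest on 22 reads in 6 libraries, and the gene entered the fit only through its 14 DAP libraries, so this value is not read as a difference between the stages. The difference was −0.54 for the 15-kDa gene (SE 0.25, edgeR adjusted p = 0.122) and −0.52 for the 16-kDa gene (SE 0.62, adjusted p = 0.540). For the 27-kDa gene it was 0.23 (SE 0.36, edgeR adjusted p = 0.645). The 50-kDa gene likewise entered the fit only through its 14 DAP libraries, and 25 of its 31 early reads were in 1 library. Its fitted difference of 1.82 (SE 1.51) is therefore not read either way. Without WT replicate 3 of 7 DAP the values of the 27-kDa and 50-kDa genes became −0.23 and −1.18.

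By likeness of pattern, the nearest identifiers outside the 6 genes were Zm00001d048849 and Zm00001d048848, out of 14245 with a mean of at least 10 CPM. Likeness was the root mean square difference of centred log2(CPM + 1) over the 12 libraries from the mean profile of the 6 genes, and it was 0.163 and 0.196, against 0.216 to 0.789 for the zein genes themselves. Both were picked as the nearest from these same values, so no p is given for them. Zm00001d048849 was at 2460 ± 46.9 CPM in msh7 and 2998 ± 30.1 CPM in WT at 14 DAP (SD, n = 3 each), with a log2 fold change of −0.28 (SE 0.02). Zm00001d048848 was at 2767 ± 12.7 CPM in msh7 and 3587 ± 82.8 CPM in WT at 14 DAP, with a log2 fold change of −0.37 (SE 0.02). Both fell less in msh7 than any of the 6 zein genes, whose log2 fold changes lay between −0.80 and −0.47. At 7 DAP Zm00001d048849 and Zm00001d048848 had 30 and 49 reads in the 6 libraries together. The sources used here do not name the products of these 2 identifiers.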

How the data were processed

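The authors deposited raw read counts per gene, 1 table per stage and 1 column per library. Per the submitters' processing notes, the build was B73 RefGen_v4 and the tools were HISAT2 2.2.1 and featureCounts 1.6.4, with Trimmomatic 0.39, StringTie 1.3.6 and DESeq2. Per the labels' protocols, libraries were made with the NEBNext Ultra II kit from DNase-treated total RNA. The sources used here give no annotation release, strand setting or rule for reads with several alignments, so reads shared between similar zein genes may be split or missing.

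Columns were matched to samples by their descriptions. Counts were tested in R 4.3.3 with edgeR 4.0.16 (quasi-likelihood test, TMM factors, default filter by group, robust dispersions), with p-values adjusted over all genes tested. Genotypes were compared in the 6 libraries of a stage, and stages and the difference between genotype effects in all 12. An SE was taken as |log2 fold change| / √F. The fits were tested on data simulated with the same dispersion for every gene. Of genes changed 1.2-fold, 26% to 52% were recovered, and of genes changed 4-fold, 96% to 100%. The simulation held no outlying library, so it does not speak to calls that rest on a single library. Counting intervals are exact (95%). Replicate pairs all differed by more than sampling noise (chi-square over its degrees of freedom, 1.66 to 2.38). Of 44146 nuclear identifiers, 0 were found in the RefSeq table, so the planned lists of other zein-pathway genes and of nuclear markers were not run. Named genes were the 6 members and the 2 identifiers nearest in pattern. The members and lists were chosen with earlier results of these data known.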

Additional observations from a re-analysis of the deposited data

Results flagged for a closer look

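By the test of the difference itself, the effect of genotype was called different between the stages for the 10-kDa delta zein. The fitted difference was −0.76 on the log2 scale (edgeR adjusted p = 0.0330). This call was lost in 4 of the fits with a library left out, and 46.8% of all genes tested were called in either direction. The same test picked out the 18-kDa delta zein, with a fitted difference of −2.76. This second value is weakly grounded, since it sets 95433 reads in msh7 and 156295 in WT at 14 DAP beside 18 reads in msh7 and 4 in WT at 7 DAP, where the gene was under the filter on low counts. Its SE in the fit of all 12 libraries, 0.50, is smaller than the SE of the 7 DAP effect alone, 0.89, so the test is not taken as support for a difference. With a library left out in turn the fitted value lay between −3.15 and −2.54.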

How the results depend on the processing

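At 14 DAP all 6 zein genes stayed lower in msh7 and called under all 14 alternatives. All 6 also stayed higher at 14 than at 7 DAP in both genotypes under all 19. For the 18-kDa and 50-kDa genes this is no separate support, since they passed the filter on low counts through their 14 DAP libraries alone. As reported, 32.1% of all genes tested were called lower in msh7 at 14 DAP. Between the stages 39.3% were called higher at 14 DAP in msh7 and 40.8% in WT. The counts of all genes called stayed within 1.5 times in every comparison. At 7 DAP the number of zein genes called was 1 as reported, 3 with no filter, 0 with DESeq2, and between 0 and 2 when each library was left out in turn. Of all genes tested, 71.1% were called as reported, 17521 of 33200 with no filter and 15550 of 24092 with DESeq2. The 3 zein genes called with no filter included the 18-kDa and 50-kDa genes, with 22 and 31 reads at 7 DAP. For the difference between stages the number of zein genes called was 2, the 18-kDa gene with its few early reads included, where 46.8% of all genes were called. It was between 1 and 2 with a library left out. Where it was 1, the gene still called was the 18-kDa gene, whose call is not read as a difference between the stages. At 7 DAP the 16-kDa gene reversed to 0.42 and 0.13 without WT replicate 3 and msh7 replicate 2, the 15-kDa gene to −0.13 and −0.02 without WT replicate 2 and msh7 replicate 2, and the 10-kDa gene to −0.16 and −0.14 without WT replicate 1 and msh7 replicate 2. The 50-kDa log2 ratio reversed to 0.43 without WT replicate 3. In the difference between stages, the 27-kDa gene reversed to −0.23 and the 50-kDa gene to −1.18 without WT replicate 3 of 7 DAP, and the 16-kDa gene to 0.30 without msh7 replicate 3 of 7 DAP. The cause was not tested. With a library left out, the 7 DAP log2 fold changes lay between −1.05 and 0.42 for the 16-kDa gene, between −0.13 and 0.23 for the 15-kDa gene and between −0.16 and 0.20 for the 10-kDa gene, and the 50-kDa log2 ratio between −3.34 and 0.43. The difference between stages lay between −0.23 and 0.46 for the 27-kDa gene, between −1.18 and 2.41 for the 50-kDa gene and between −1.18 and 0.30 for the 16-kDa gene. With library totals as the only scaling the summed level was 40494 CPM in msh7 and 56222 CPM in WT at 14 DAP and 12.1 CPM in msh7 at 7 DAP. Leaving out a library gave sums of 43435 to 43837 CPM in msh7 and 63948 to 65135 CPM in WT at 14 DAP, and 10.5 to 10.8 CPM in msh7 and 10.2 to 13.1 CPM in WT at 7 DAP. Same-numbered libraries of the genotypes did not deviate together (correlations between −0.005 and 0.049), and with the replicate number as a block 17132 genes were called at 7 DAP and 15235 at 14 DAP. The block called 1 more zein gene in the difference between stages, the 50-kDa gene (1.85). This gene entered the fit only through its 14 DAP libraries, so the call is not read as a difference between the stages. Depth limits the 18-kDa and 50-kDa genes at 7 DAP, where no library but 1 had more than 8 reads.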
